A study of Mus musculus with 6 samples.

Results

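Onecut1, Onecut2 and Onecut3 are the 3 members of the mouse Onecut family of transcription factors, and they are described here in the dorsal telencephalon of mouse embryos that had received fibroblast growth factor 2 (FGF2) or vehicle. All 3 were found by symbol among the 37991 genes listed in each count file. They were picked because they stood higher after FGF2 in these same libraries, so their own difference between the groups is given as a description without a test. The study sequenced 6 libraries of CD1 embryos labelled E13.5, an age the labels also give for the injection, with 1 library per embryo. In 3 of them (FGF2 6, FGF2 7 and FGF2 8) 100 ng of FGF2 had been injected into the ventricles, and the other 3 (vehicle 7, vehicle 8 and vehicle 9) had been given the carrier alone, 0.1% BSA in PBS. Fixed coronal cryosections from levels rostral to the hippocampus supplied the RNA. The labels mention no transgene and give neither the time from injection to collection nor the litters, so p-values measure only the spread between these libraries.

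Onecut proteins bind DNA through a CUT domain together with a divergent homeodomain. Onecut1, also called HNF-6, is best known as a regulator of liver and pancreas development. In the nervous system the family acts mostly in newly formed neurons. The factors are needed for horizontal cells of the retina, and in the spinal cord they maintain Isl1 in motor neurons and take part in interneuron differentiation.

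Because the members are related in sequence, a short read could in principle be assigned to the wrong one. In the GENCODE M21 transcripts each member has 2 exons around a large intron of 25904 (Onecut1), 44734 (Onecut2) and 17666 bases (Onecut3). No stretch of 76 bases, the length of a read here, was identical in any pair of the 3 transcripts. The longest stretch shared by Onecut1 and Onecut3 was 50 bases, in the coding part of the first exon of both, and it is printed because it is where these transcripts are hardest to tell apart.

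Onecut1 and Onecut3: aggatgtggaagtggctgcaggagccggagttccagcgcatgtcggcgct

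Downstream, at the start of the second exon, which encodes the homeodomain, both transcripts were identical at 130 of 180 bases with no run of identical bases longer than 11. These windows lie at chr9:74889306-74889485 and chr10:80513857-80514036 of GRCm38, both on the plus strand, and the capitals mark the 50 bases that differ.

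Onecut1: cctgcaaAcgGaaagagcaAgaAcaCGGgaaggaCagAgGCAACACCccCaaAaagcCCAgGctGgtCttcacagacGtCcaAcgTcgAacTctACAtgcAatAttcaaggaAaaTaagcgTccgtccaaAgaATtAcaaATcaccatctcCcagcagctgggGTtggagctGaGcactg

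Onecut3: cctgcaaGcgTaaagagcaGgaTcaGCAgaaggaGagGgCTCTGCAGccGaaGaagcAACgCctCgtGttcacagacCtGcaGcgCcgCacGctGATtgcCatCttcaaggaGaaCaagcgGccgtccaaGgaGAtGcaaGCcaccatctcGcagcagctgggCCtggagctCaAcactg

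Over the coding part of the second exon, Onecut2 was identical to Onecut1 at 68.7% and to Onecut3 at 64.8% of the bases compared, and Onecut1 to Onecut3 at 65.2%. The longest stretch that Onecut2 shared with another member was 38 bases.

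Library totals ran from 61489462 to 81532334 reads over gene spans. Every count of vehicle 9 was even, so its reads are not all separate. With the counts of vehicle 9 halved, the members' log2 differences were 3.83 for Onecut1, 2.84 for Onecut2 and 6.62 for Onecut3. All 3 FGF2 embryos and vehicle 7 carried Y-linked reads (10475 to 16232), while vehicle 8 and vehicle 9 had 22 each, so embryo sex and group partly coincide. The sections carried the defining markers of the dorsal telencephalon in every library, with a summed level of 1895 to 2277 CPM (reads scaled to library size by trimmed mean of M-values) over 10 markers in the FGF2 embryos and 3036 to 3212 CPM in the vehicle embryos. In such tissue RNA, more cells of a type and more RNA per cell cannot be told apart.

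Onecut2 was the member with the most reads in every embryo. Its gene, ENSMUSG00000045991, spans 58123 bases of chromosome 18 (64500018 to 64558140, NCBIM37) and overlaps no other listed gene. The FGF2 embryos 6, 7 and 8 had 1822, 816 and 1095 reads, and the vehicle embryos 7, 8 and 9 had 116, 181 and 150. Scaled to library size these were 21.7, 11.5 and 17.0 CPM after FGF2 against 1.90, 2.71 and 2.38 CPM after vehicle. The groups did not overlap, and the lowest FGF2 embryo lay far above the highest vehicle embryo. The mean was 16.7 ± 5.08 CPM (SD, n = 3) against 2.33 ± 0.408, a log2 difference of 2.84 ± 0.26 (SE). Onecut2 was thus present at a low level in the vehicle embryos, unlike the other two members, which were close to the detection limit there.

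Onecut3 had the largest fitted log2 difference of the 3 with all 6 embryos and no covariate, though Onecut1 exceeded it without vehicle 8 (9.04 against 6.59) or with embryo sex in the model (9.03 against 6.57), where its fitted value rests on vehicle embryos with 0 reads. ENSMUSG00000045518 spans 22442 bases of chromosome 10 (79957580 to 79980021), and only AC152058.1, a listed gene of small size with at most 5 reads, lies within it. The FGF2 embryos 6, 7 and 8 had 516, 162 and 89 reads, while each vehicle embryo had 2. All FGF2 embryos were above all vehicle embryos, but they differed among themselves by 4.43-fold in CPM, with FGF2 6 highest. In CPM they stood at 6.13, 2.28 and 1.38, against 0.0327, 0.0299 and 0.0317 in vehicle embryos 7, 8 and 9. The 2 reads of vehicle 7 and of vehicle 8 covered 152 bases each, so they did not overlap, and those of vehicle 9 covered 76 bases, the length of a lone read counted again. Over the group the ratio of scaled reads was 111, with a 95% exact binomial interval of 50.9 to 304. With reads halved, to allow for alignments that are not independent, the interval was 37.9 to 543, and both intervals cover counting error only. The fitted log2 difference was 6.62 ± 0.75 (SE). It was 5.79 without FGF2 6.

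Onecut1 was the scarcest member. ENSMUSG00000043013 spans 29555 bases of chromosome 9 (74709728 to 74739282). The FGF2 embryos 6, 7 and 8 had 122, 59 and 37 reads, and all 11 vehicle reads lay in vehicle 8, with 0 in vehicle 7 and vehicle 9. In CPM the FGF2 embryos stood at 1.45, 0.832 and 0.575 and vehicle 8 at 0.165. The lowest FGF2 embryo was again above the highest vehicle embryo. The ratio of scaled reads over the groups was 17.25 (9.45 to 35.1, 95% exact binomial interval, counting error only), and the fitted log2 difference was 4.03 ± 0.99 (SE). Vehicle 8 decides the size of this difference. With vehicle 8 left out, Onecut1 was at least 41.1-fold higher after FGF2 when 3 reads in all were assumed for the remaining vehicle embryos, which had none.

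**Figure D1:**
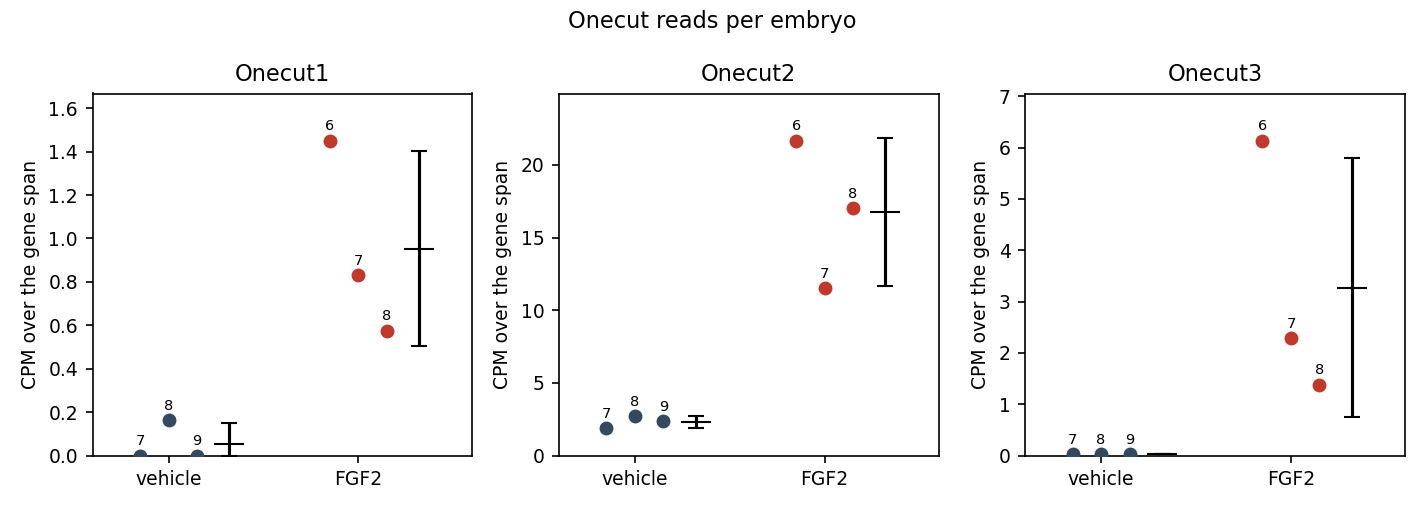
CPM of Onecut1, Onecut2 and Onecut3 over the gene span in each embryo, with the embryo number at each point, the group mean as a dash and the SD as a bar (n = 3 embryos, the lower bar ends at 0 where the SD exceeds the mean). In each panel all 3 FGF2 embryos lie above all 3 vehicle embryos, and FGF2 6 is highest, at 21.7 CPM for Onecut2.

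Read as a family, FGF2 6 was the highest embryo for all 3 genes. FGF2 7 and FGF2 8 changed places, since Onecut2 was higher in FGF2 8 and the other two were higher in FGF2 7. The spread among FGF2 embryos, highest over lowest in CPM, was 1.88-fold for Onecut2, 2.52-fold for Onecut1 and 4.43-fold for Onecut3. Across the 21983 genes that edgeR's quasi-likelihood method tested, 2.68% were called higher after FGF2, 3.63% were called in either direction and 14.6% had every FGF2 embryo above every vehicle embryo. The same fit placed Onecut2 and Onecut3 past its threshold of 0.05 and Onecut1 not, and nothing is read from this because the members were picked on this difference. A fitted rise at least as large as that of Onecut3 was seen for 18 tested genes, itself included, and at least as large as those of Onecut1 and Onecut2 for 71 and 185.

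The authors' deposited RPKM values, which are scaled for gene length, allow the members to be ranked against each other. After FGF2 the order was Onecut2, Onecut3, Onecut1 in each of the 3 embryos. Onecut2 stood at 1.66, 0.866 and 1.23 RPKM in FGF2 6, 7 and 8, Onecut3 at 1.18, 0.415 and 0.207, and Onecut1 at 0.382, 0.203 and 0.132. Across embryos the ranges of neighbours in this order overlapped, as FGF2 7 had less Onecut2 than FGF2 6 had Onecut3. In the vehicle embryos 7, 8 and 9 Onecut2 was at 0.135, 0.143 and 0.165 RPKM. Onecut1 was listed at 0 in vehicle 7 and vehicle 9 and at 0.0171 in vehicle 8, and Onecut3 at 0, 0.00682 and 0.00703, so their order there could not be told. The makeup of the family differed between FGF2 embryos. Onecut2 gave 51.6%, 58.3% and 78.4% of the summed family RPKM in FGF2 6, 7 and 8, and Onecut3 gave 36.6%, 28.0% and 13.2%. In the vehicle embryos the share of Onecut2 was 85.7% to 100%, on a family sum of only 0.135 to 0.172 RPKM.

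**Figure D2:**
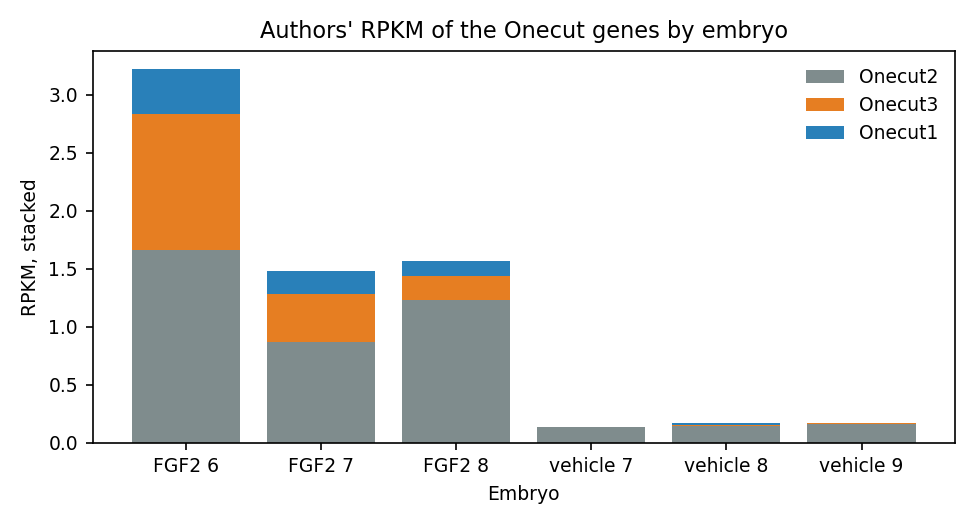
Authors' RPKM of Onecut2, Onecut3 and Onecut1, stacked, for each of the 6 embryos (1 library each, no error bars). The family sum reaches 3.22 RPKM in FGF2 6 and stays at or below 0.172 RPKM in the vehicle embryos, nearly all of it Onecut2.

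The count files also give the number of bases of each gene span that alignments touch, a readout that shows how the reads lie along the gene. A lone read most often touched 76 bases but could touch up to 42210, so a gap inside an alignment, as splicing over an intron leaves, is counted as touched. Where the touched bases exceed 76 per read, at least 1 alignment held such a gap. This was so for Onecut1 in FGF2 7, where 59 reads (4484 bases) touched 27773 bases, 94.0% of the span. It was also so for Onecut1 in FGF2 6 (25586 bases touched by 122 reads) and for Onecut3 in FGF2 8 (20282 bases touched by 89 reads). Among vehicle embryos the excess was seen for Onecut2 in vehicle 7, with 48839 bases touched by 116 reads. The reverse was seen for Onecut3 in FGF2 7, where 162 reads touched 4722 bases, close to the 4776 bases of its transcript. In FGF2 8 the 37 Onecut1 reads touched 1719 bases, and in vehicle 8 the 11 reads touched 482. An excess of this kind was common, with 26.1% to 33% of genes with 20 to 200 reads per library showing it, so it is a description of these reads and nothing particular to the Onecut genes. The 3 Onecut2 libraries after FGF2 had more read bases than span, and there the comparison says nothing.

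**Figure D3:**
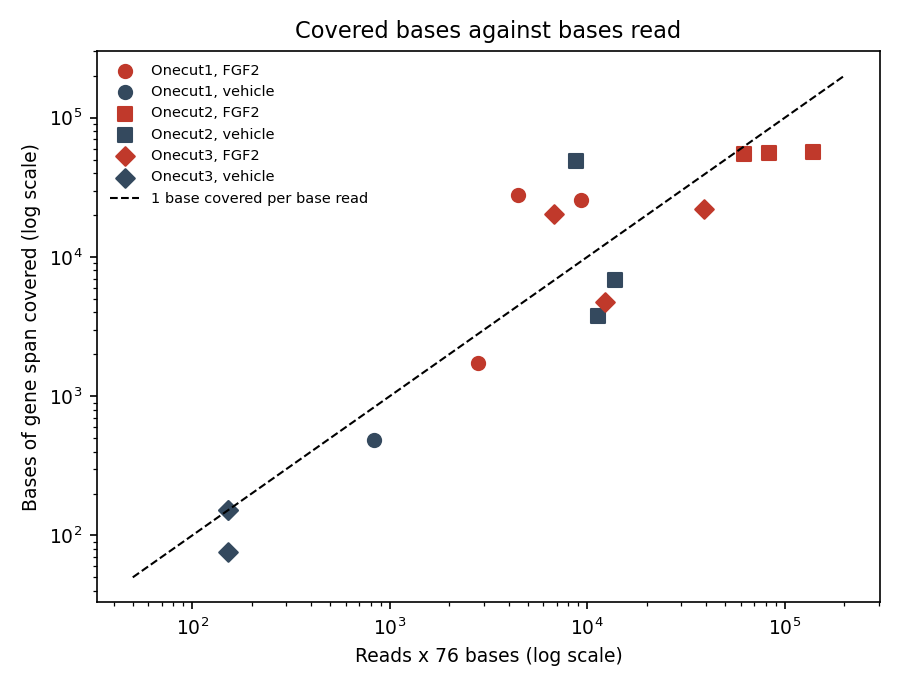
Bases of the gene span touched by alignments against reads times 76 bases, both on log scales, for each member and embryo with at least 1 read. Points above the dashed line, such as Onecut1 in FGF2 7 with 27773 bases touched by 59 reads, need an alignment with an internal gap.

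The locus of Onecut1 held a second readout that the choice of members did not use. Gm20649 (ENSMUSG00000093662, by its GENCODE M21 name, and annotated there as a long noncoding RNA on the same strand, with a readthrough transcript) spans 74696270 to 74739282 of chromosome 9, so it begins 13458 bases upstream of Onecut1 and includes all of it. Reads in this span and outside Onecut1 numbered 173, 87 and 78 in FGF2 6, 7 and 8 and 0 in each vehicle embryo. All FGF2 embryos thus had upstream reads and no vehicle embryo did, a level at least 98.1-fold higher when the vehicle group is assigned 3 reads in all. The upstream reads alone were not tested. The span of Gm20649 overlaps 3 listed genes, while Onecut1 overlaps 2, Gm20649 itself and AC100600.1. Another listed gene thus reaches into the upstream part, and reads there were not divided between it and Gm20649. In each FGF2 embryo more reads lay upstream than in Onecut1 itself, in the order FGF2 6, 7, 8 for both. In FGF2 8, 11341 of the 13458 upstream bases were touched, against 5928 bases in the 78 upstream reads. An alignment with a gap is again needed, and it may be one that reaches into Onecut1 and is counted there. Where reads within Onecut1 came from the longer RNA, they cannot be told from those of Onecut1. The whole span of Gm20649 holds all Onecut1 reads, which chose the members, so no test of it is given.

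Other neighbours of the 3 genes mostly did not pass. Of the 12 nearest named genes, 2 on either side of each member, only Wdr72, 578612 bases from Onecut1, was called, at 33, 30 and 34 reads in FGF2 6, 7 and 8 against 2, 2 and 8 in vehicle 7, 8 and 9 (log2 fold change 2.79, edgeR adjusted p = 0.0435). That call was lost without any 1 FGF2 embryo, vehicle 7 or vehicle 8 (adjusted p up to 0.181). Unc13c, which encodes a presynaptic priming protein, was at 112, 92 and 171 against 37, 38 and 38 reads and did not pass (adjusted p = 0.0508). Atp8b3, only 2308 bases beyond Onecut3, was at 87, 54 and 57 reads against 34, 47 and 48, and Tcf3, on the other side, had a log2 fold change of -0.18. Next to Onecut2, St8sia3, a sialyltransferase gene, had a log2 fold change of 0.54 and Fech, the last enzyme of haem synthesis, one of 0.13. None of these 4 passed (edgeR adjusted p = 0.156 to 0.596).

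The partners and downstream genes of Onecut factors were followed in 4 lists, set beside the 2.68% of all tested genes that rose, the 0.951% that fell and a median log2 fold change of 0.01 over all of them. Of 4 tested genes in the list of other CUT-domain factors, 0 rose and 0 fell in edgeR's test, with a median of -0.28, while 3 had an unadjusted p under 0.05. Satb1, a chromatin organiser with CUT domains, had a log2 fold change of -0.27 (adjusted p = 0.0726, edgeR). DESeq2 called 2 of the 4, Satb1 and Cux1, both lower (adjusted p = 0.00366 and 0.0169).

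In the horizontal cell cascade of the retina, 2 of 5 tested genes rose, with a median of 1.55. Prox1, a homeobox gene that works downstream in that cascade, rose from 3.60, 4.47 and 3.02 CPM in vehicle 7, 8 and 9 to 12.5, 14.1 and 17.5 CPM in FGF2 6, 7 and 8 (log2 fold change 1.99, edgeR adjusted p = 0.00288). Its groups did not overlap, but the order of its FGF2 embryos was not that of any Onecut gene. Lhx1 rose by 1.55 (adjusted p = 0.0112), and its call was lost without any 1 vehicle embryo (up to 0.0666). Foxn4, which acts upstream in the cascade, was at 30, 14 and 28 reads against 0, 0 and 6 and did not pass (adjusted p = 0.119). Ptf1a, which acts after Foxn4, had 5 reads in FGF2 6 and 0 elsewhere. Of 5 tested eye markers, edgeR called 0 higher (DESeq2 2), and Dct, a melanin enzyme, fell by 1.31 (adjusted p = 0.0209, lost without FGF2 7, FGF2 8 or vehicle 7). The eye-field genes Rax and Six6, removed by the low-count filter with all 6 embryos, had 112, 74 and 7 and 42, 39 and 8 reads in FGF2 6, 7 and 8, against 0 for Rax and at most 2 for Six6 in vehicle embryos. In the fits with 1 embryo left out that kept them, their edgeR adjusted p ran from 0.00224 to 0.174 for Rax and from 0.01 to 0.182 for Six6. Crx, Atoh7 and Rpe65, which the filter also removed, had at most 12 reads in any embryo.

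Of the motor neuron genes, 1 of 4 tested rose, and the median was -0.02. Isl1, a LIM homeobox gene that Onecut factors maintain in motor neurons, rose from 0.409, 0.479 and 0.317 CPM in vehicle 7, 8 and 9 to 31.6, 30.2 and 36.6 CPM in FGF2 6, 7 and 8 (log2 fold change 6.34, edgeR adjusted p = 1.54e-05). Isl1 is also in the ventral telencephalon list. Its FGF2 embryos lay within 30.2 to 36.6 CPM, while those of Onecut3 ran from 1.38 to 6.13 CPM. Mnx1, the defining motor neuron gene, had 0 reads in all 6 embryos, and Chat had at most 16.

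In the liver and pancreas list 2 of 4 tested genes rose, with a median of 2.93, and the other 10 matched genes had too few reads to test. Ttr, a thyroid hormone carrier expressed in liver and choroid plexus, rose from 20, 6 and 28 reads in vehicle 7, 8 and 9 to 4971, 8913 and 25204 reads in FGF2 6, 7 and 8 (log2 fold change 9.39, edgeR adjusted p = 0.0107, lost without vehicle 7 at 0.0627). Its order over the FGF2 embryos was the opposite of that of Onecut3. Foxa1, a forkhead factor of endoderm and ventral midline, rose by 5.05 (adjusted p = 0.0337), and its call was lost without any 1 FGF2 embryo, vehicle 7 or vehicle 9 (up to 0.117), as well as with DESeq2 (0.0609), without the low-count filter (0.059) and with a replicate block (0.113). Alb, the main liver product, had at most 6 reads in an embryo, Foxa2 at most 4, and Pdx1, the defining pancreas gene, had 0 in all.

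Markers of other regions and cell types that the sections could hold moved between the groups as well, and their part in the Onecut differences was not tested. Ventral telencephalon markers rose for 12 of 15, with a median of 2.90, and their summed level was 722 to 972 CPM in FGF2 embryos against 102 to 221 CPM in vehicle embryos. Hypothalamic markers rose for 3 of 6 tested (median 2.70), at a summed 99.2 to 139.6 CPM against 5.75 to 10.44 CPM. Nkx2-1, which patterns both the hypothalamus and the medial ganglionic eminence, was at 58.9, 60.7 and 26.5 CPM in FGF2 6, 7 and 8 against 1.33 to 2.06 CPM, and Fezf1, a forebrain patterning gene, at 14.5, 12.2 and 7.53 against 0.381 to 0.932 CPM. Both rose (edgeR adjusted p = 0.00158 and 0.00247) and both had their lowest FGF2 value in FGF2 8, as Onecut1 and Onecut3 did. The third hypothalamic gene that rose, Six3, an eye and forebrain homeobox gene, was lowest in FGF2 6 instead, at 54.8, 60.2 and 60.0 CPM in FGF2 6, 7 and 8 against 0.444 to 4.12 CPM (adjusted p = 0.0286, lost without any 1 FGF2 embryo, vehicle 7 or vehicle 8, up to 0.102). The low-count filter removed 4 hypothalamic genes. Of these, Hmx2 had 52, 16 and 0 reads and Hmx3 had 32, 26 and 1 in FGF2 6, 7 and 8. Both had at most 4 in a vehicle embryo. With 1 embryo left out, the edgeR adjusted p ran from 0.0468 to 0.485 for Hmx2 and from 0.0384 to 0.478 for Hmx3, where kept. Otp had 1, 2 and 4 reads and Nkx2-4 had 7, 0 and 4, with at most 2 in a vehicle embryo. Sim1, Foxb1 and Pomc were tested and did not pass. Their log2 fold changes were 0.49, 1.14 and 0.32 (edgeR adjusted p = 0.437, 0.207 and 0.528).

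Midbrain, pretectal and thalamic markers rose for 6 of 16 tested (median 1.28), with a summed level of 336, 178 and 343 CPM in FGF2 6, 7 and 8 against 129 to 145 CPM in vehicle embryos. FGF2 7 was the lowest FGF2 embryo in this sum, as it was for Onecut2, but FGF2 6 and FGF2 8 were close together here. Gbx2, a thalamic gene, rose to 1009, 152 and 1429 reads from 0, 12 and 4 (edgeR adjusted p = 0.0279), and Tcf7l2, a Wnt effector of the thalamus, rose by 2.01 on the log2 scale (adjusted p = 0.0366). Neither was called once FGF2 6, FGF2 8 or a single vehicle embryo was left out (adjusted p up to 0.138). Th, the enzyme of dopamine synthesis, rose by 3.00 (adjusted p = 0.0154, lost without vehicle 7 or vehicle 9), while En1 and Lmx1b, markers of midbrain dopamine progenitors and neurons, did not pass at log2 fold changes of -0.14 and -0.30. Cajal-Retzius markers rose for 4 of 10 (median 0.33), at 411 to 548 CPM summed against 498 to 584 CPM. The 4 were Ebf3, Lhx1, Trp73 and Lhx5, and Lhx1 is also in the horizontal cell list. The largest part of the sum was Tbr1, which is also in the dorsal telencephalon list. Tbr1 was at 160, 139 and 223 CPM in FGF2 6, 7 and 8 against 271, 275 and 319 CPM in vehicle 7, 8 and 9. Sensory ganglion and neural crest markers rose for 1 of 9 tested (median 0.98), at 22.9 to 39.9 CPM against 14.9 to 17.3 CPM, and the gene was Sox10, which was called in full data and with FGF2 6 left out but with no other embryo left out (edgeR adjusted p up to 0.141).

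Of 12 general neuronal genes tested, 2 rose (median 0.36), and these were Nefm and Nefl, neurofilament genes whose spans overlap. The 12 genes summed to 2046, 2096 and 3352 CPM in FGF2 6, 7 and 8, and to 2217 to 2256 CPM in vehicle embryos. FGF2 6, the embryo highest in every Onecut gene, was thus the lowest of the 6 in this sum. Nefm itself was at 52.3, 51.9 and 56.3 CPM in FGF2 6, 7 and 8 against 21.2 to 26 CPM. Nefl was at 15.6, 13.7 and 16.7 CPM against 4.06 to 7.69 CPM. Choroid plexus markers rose for 7 of 10 and fell for 1, at a summed 177, 244 and 493 CPM in FGF2 6, 7 and 8 against 22.0 to 24.5 CPM. Dorsal telencephalon markers rose for 0 and fell for 4 of 10 (median -0.76), among them Emx1 and Eomes, by 0.88 and 0.91 (edgeR adjusted p = 0.00188 and 0.00288). Markers of mesenchyme, vessels, macrophages and skin rose for 0 (1 with DESeq2) and fell for 2 of 11 tested, the collagen genes Col1a1 and Col1a2. Myod1, the muscle marker of that list, had at most 2 reads in an embryo and was not tested.

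DESeq2 called other numbers in several of these lists, with 10 midbrain, pretectal and thalamic, 4 sensory ganglion, 14 ventral telencephalic and 4 general neuronal genes higher and 6 dorsal telencephalic genes lower. In the motor neuron, Cajal-Retzius and general neuronal lists it called 1 gene each lower, and of the choroid plexus genes it called 6 higher.

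With embryo sex in the model, the FGF2 embryos were in effect compared with vehicle 7 alone. Vehicle 8 and vehicle 9 then served only to estimate the sex term. The data thus hold no replicated vehicle group of the same sex as the FGF2 embryos, and calls from that fit are not given. Every call in this text comes from a model without sex, so none of them separates FGF2 from embryo sex. Each of the 27 named genes called without sex in the model kept its direction. Log2 fold changes with and without sex were 2.03 and 1.99 for Prox1, 5.01 and 4.89 for Nkx2-1, 1.78 and 1.67 for Ebf1, a factor of striatal neurons, and -0.89 and -0.88 for Emx1, while that of Foxa1, with 0 reads in vehicle 7, went from 5.05 to 10.38. The members' log2 differences in that model were 9.03 for Onecut1, 3.14 for Onecut2 and 6.57 for Onecut3. Vehicle 7, the vehicle embryo with Y-linked reads, had the lowest Onecut2 level of all in CPM (1.90), 0 Onecut1 reads and 2 Onecut3 reads.

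**Figure D4:**
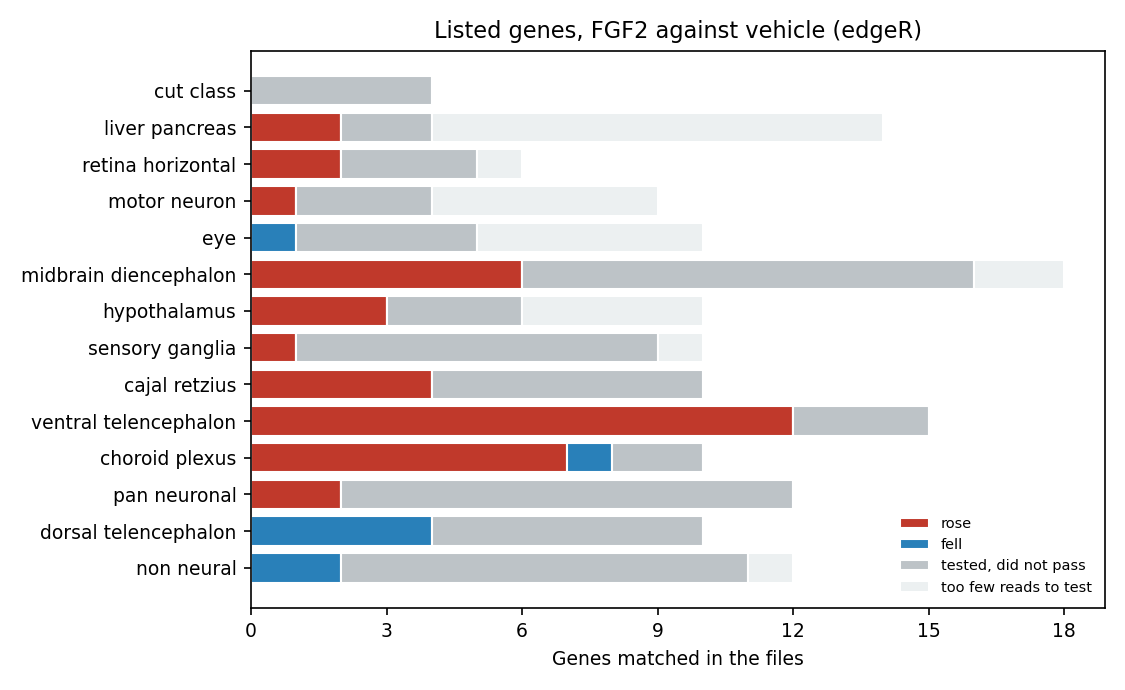
Number of matched genes in each of 14 lists that rose, fell, were tested and did not pass, or had too few reads to be tested (FGF2 against vehicle, edgeR's quasi-likelihood test, adjusted p under 0.05 over 21983 genes). The ventral telencephalon list has 12 of 15 genes risen and the list of other CUT genes 0 of 4.

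Genes whose profile over the 6 embryos was most like that of each member were found by the root mean square difference of log2 CPM, centred on each gene's mean, among 8788 tested genes that averaged 1 CPM or more and whose span overlapped no other. The likeness uses the same libraries and is mostly the step between the groups, so it is a description. Among the 5 nearest to Onecut2 were Dmrtb1 (0.27), Aifm3 (0.29), Lmx1a (0.31) and Ret (0.41). Lmx1a, a factor of the roof plate and hem, was at 6.68, 4.89 and 4.66 CPM in FGF2 6, 7 and 8, and Ret, a neurotrophic receptor, at 2.07, 1.62 and 1.79 CPM.

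Nearest to Onecut3 were Fgf17 (0.46), Rspo2 (0.52), Nkx2-1 (0.58), Gsx1 (0.65) and Ccno (0.73). Fgf17, a ligand of the rostral signalling centre, was at 35.4, 27.8 and 11.5 CPM in FGF2 6, 7 and 8 and Rspo2, a secreted enhancer of Wnt signalling, at 2167, 1360 and 640 reads. Both fell off in the order of Onecut3. The nearest profiles to Onecut1 were farther away, at 0.67 (Gm6320), 0.69 (Th), 0.70 (Foxa1), 0.77 (Pax3) and 0.86 (Nkx2-1). Each of these genes had its highest vehicle value in vehicle 8, as Onecut1 did, with Th at 0.987 and Foxa1 at 0.209 CPM. The likeness selects for this, so it is no separate finding. Between the members the same difference was 1.07 for Onecut1 and Onecut2, 1.20 for Onecut1 and Onecut3 and 1.45 for Onecut2 and Onecut3. Nkx2-1 was the gene that appeared in both the Onecut1 and the Onecut3 group.

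**Figure D5:**
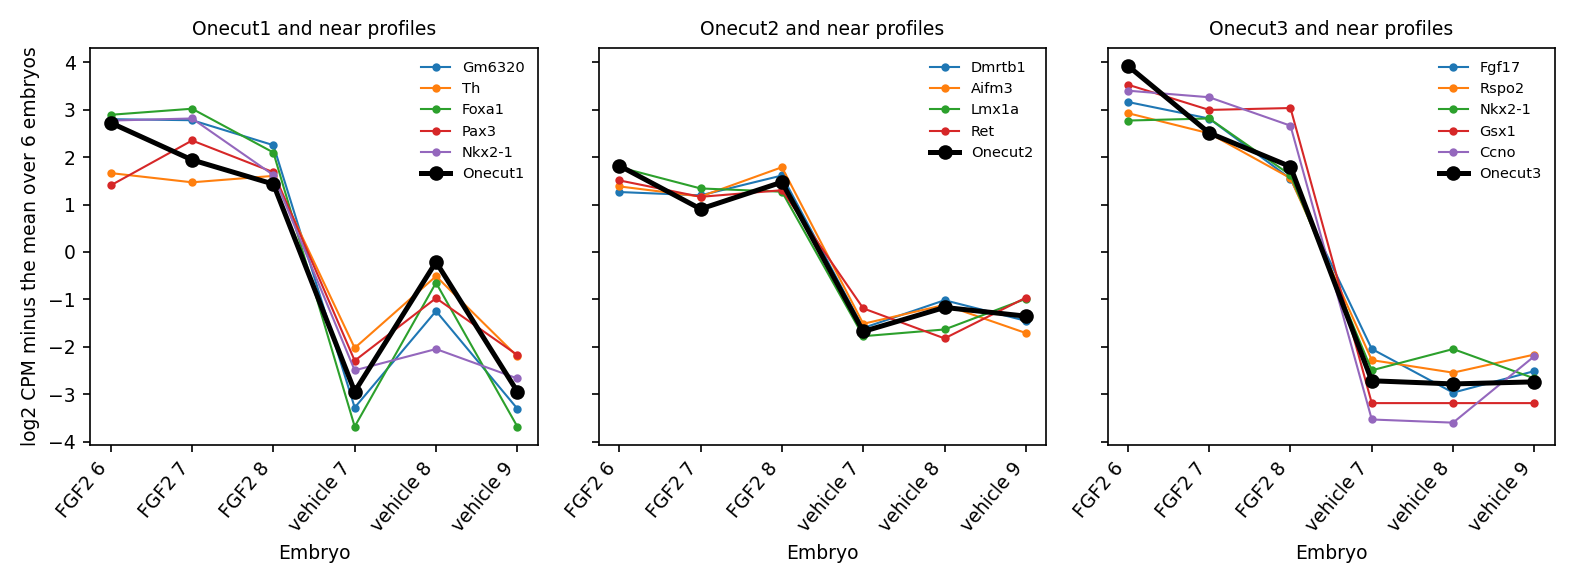
log2 CPM minus each gene's mean over 6 embryos (prior count of 2) for Onecut1, Onecut2 and Onecut3 in black and genes with the nearest profiles in colour (5 each for Onecut1 and Onecut3, and 4 for Onecut2). Onecut2 and these genes run nearly together, with differences of 0.27 to 0.41, while those of Onecut1 differ by 0.67 to 0.86.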

How the data were processed

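RNA of 6 libraries was analysed, 3 per group. The tools listed in the submitters' processing notes, without their roles, are bedtools 2.12.0, TopHat2 2.0.9, CASAVA 1.8 and Bowtie2 2.1.0.0, and the build is NCBIM37 (mm9). The deposited counts are whole numbers of alignments over each gene's span, introns included, and no source used here says whether strand was used. The deposited files also give covered bases (coverage signal) and the covered fraction of each span. The authors' RPKM files were joined by symbols that occur once.

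The deposited counts of 37991 genes went unaltered into edgeR (version 4.0.16, R version 4.3.3; filterByExpr, TMM, robust glmQLFit, glmQLFTest) over all 6 libraries, and p-values were adjusted by Benjamini-Hochberg over the 21983 genes kept. A listed symbol with several identifiers was taken at the one with the most reads. Slc18a3 and Map2 were not analysed here. limma 3.58.1 and DESeq2 1.42.0 served as alternatives. In a simulation of this comparison with 21617 genes, edgeR recovered 79 of the 100 genes given a 2-fold change and 100 of the 100 given a 4-fold change, and made 9 false calls. The changed genes all averaged 1 CPM or more, and the spread followed the fitted trend. No sex effect and no repeated counts of vehicle 9 were simulated. These figures thus do not cover scarcer genes or those features of the real libraries. The members and all 14 lists were chosen with earlier results of these data known. The rule for named genes takes the members, the 3 genes of each list with the smallest p, 8 known partners or targets, the nearest neighbours and the nearest profiles. Some genes that the rule takes are not reported here. Other listed genes in the text were chosen after their values were seen. Transcript sequences and names are from GENCODE M21 (GRCm38), used for no coordinate of the NCBIM37 files. Binomial intervals and floors cover counting error only. Each SE is an approximation, the size of the fitted log2 difference divided by the square root of the F statistic from the same edgeR fit.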

Additional observations from a re-analysis of the deposited data

How the results depend on the processing

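The sign of all 3 members' log2 differences held in 18 other settings and in 1 chosen after seeing the data, wherever a member was in the fit. Onecut1 and Onecut3 had no value in the RPKM fits with a minimum of 1 RPKM in 3 libraries or where overlapping spans were removed, nor Onecut2 in those RPKM fits, nor Onecut1 when 1 CPM was required in 3 libraries. Leaving out 1 embryo at a time gave 3.47 to 9.04 for Onecut1, 2.61 to 3.05 for Onecut2 and 5.79 to 6.99 for Onecut3. On log2(RPKM + 1) without a filter, a scale that understates low genes, the differences were 0.30, 0.96 and 0.63 for Onecut1, Onecut2 and Onecut3. Onecut1 was 9.03 with embryo sex as a covariate and 5.32 with voom and sample quality weights. With the embryo number as a replicate block Onecut3 was 5.77 and 703 genes were called. The numbers 7 and 8 occur in both groups, and the deviations of same-numbered embryos correlated at only -0.04 and -0.03. With 1 pair per number, this cannot tell whether those embryos shared a litter.

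The count of called genes (799) was 218 to 1943 with 1 embryo left out, 5 with sex as a covariate, 2145 with DESeq2, 2259 with voom, 432 and 431 on log2(RPKM + 1) and log2(RPKM + 0.1), 271 on log2(RPKM + 1) without a filter, and 488 among genes overlapping no other span. The share of higher calls fell to 49.6% without FGF2 8 and 56.4% with voom, from 73.8%. The 44 listed genes called became 20 to 57 with 1 embryo left out, 2 with sex as a covariate, 25 on unfiltered log2(RPKM + 1) and 26 among genes overlapping no other span. Fewer genes were tested where overlapping spans were removed and fewer embryos where 1 was left out, and otherwise the cause was not tested. Depth limits Onecut1 and Onecut3 in vehicle embryos, where 11 and 6 reads were counted in all.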
